A study of Mus musculus with 34 samples.

Results

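The genes described here are 10 transcripts that are known targets of the tumour suppressor p53 or respond to DNA damage: Cdkn1a, Gadd45a, Sfn, Ccng1, Mdm2, Zmat3, Bbc3, Phlda3, Trp53inp1 and Sesn1. They were named because the toxicity of carbon black to DNA is a subject of study, and their probes were found through the RefSeq accessions that the array files carry. All 10 were on the array, with 17 of its 41174 probes, and all 17 probes passed the filter on dim signals, so 10 of the 19795 genes tested were members. RNA from the hearts of female C57BL/6 mice, acquired at 5 to 6 weeks of age, was hybridised to 34 arrays, 1 mouse per array. Printex 90, a commercial carbon black nanoparticle, was instilled into the trachea at 162 µg per mouse, and control mice received the vehicle, salt water with cell-free lung lavage fluid of the same strain. Hearts were taken after 1 day (6 control and 6 carbon black mice), 3 days (6 and 5) or 28 days (6 and 5). The labels name no transgene or further agent, and give the tissue as a random piece of heart with both ventricles in it, so its share of atrium, fat and vessels was not fixed.

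p53 is a transcription factor that is stabilised when DNA is broken or oxidised, and its targets halt the cell cycle, promote repair or trigger cell death. Mdm2, itself a target, marks p53 for degradation and so closes a feedback loop. Cardiomyocytes, which make up most of the heart's mass, divide rarely in adult mice, so the arrest genes and the death genes of the pathway are mostly studied there in connection with oxidative injury and drug toxicity.

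Of the 10 genes, 1 passed the test over all days together, where 1.95% of all genes did. Sfn, the member of the 14-3-3 family that holds cell cycle kinases in the cytoplasm, fell by 21.3% after carbon black (95% interval of the change, -30.7% to -10.7%; limma, Benjamini-Hochberg adjusted p = 0.0451), and this rested on 1 of its 3 probes. Cdkn1a, Mdm2, Bbc3 and the 6 others did not pass on any day or over all days. For Mdm2 the 95% interval of the change over all days ran from -12.4% to 3.41%, for Bbc3 from -16.4% to 7.73% and for Zmat3 from -7.21% to 16.8%. For Cdkn1a, the classical p53 target, it ran from -13.7% to 29.8%.

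Each value below is a log2 ratio of heart RNA over a reference RNA pooled from many mouse tissues, so that 0 means equal signal in both, and a change is the difference of mean log2 ratios, carbon black minus control. Over all days, the change is the mean of the 3 day effects. A call means a Benjamini-Hochberg adjusted p under 0.05 from limma, adjusted over all 19795 genes. In bulk tissue, fewer cells of a type and less RNA per cell cannot be told apart.

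RefSeq promoters (assembly GRCm38.p6) were available for 8 of the 10 genes, with 12 start sites in all. The 10-base half-site of p53, by its standard consensus, was searched in the 250 bases before each start. The consensus is its own reverse complement, so a match counts for both strands, and no other motif was searched. Of the 12 windows, 5 held it, against 7.13% of the 32851 promoter windows of the same length in the table. The windows with a match were those of Cdkn1a (2 matches), Mdm2, Ccng1, Gadd45a and the second start of Sesn1 (1 each); those of Sfn, Phlda3, Bbc3, the other start of Sesn1 and the second of Cdkn1a held none. A match is a description of letters and not evidence of binding. Those of the main arrest gene, the feedback gene, the member with the largest positive change and the member that passed the test are shown, 5′ to 3′ on the strand of the gene, with the half-site in capitals.
Cdkn1a, first start, chr17:29090729-29090978, plus strand: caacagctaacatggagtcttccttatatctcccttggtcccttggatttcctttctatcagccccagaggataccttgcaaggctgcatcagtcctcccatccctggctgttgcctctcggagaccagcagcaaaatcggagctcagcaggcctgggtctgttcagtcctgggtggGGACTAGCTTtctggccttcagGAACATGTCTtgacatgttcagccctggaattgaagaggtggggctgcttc
Mdm2, chr10:117710759-117711008, minus strand: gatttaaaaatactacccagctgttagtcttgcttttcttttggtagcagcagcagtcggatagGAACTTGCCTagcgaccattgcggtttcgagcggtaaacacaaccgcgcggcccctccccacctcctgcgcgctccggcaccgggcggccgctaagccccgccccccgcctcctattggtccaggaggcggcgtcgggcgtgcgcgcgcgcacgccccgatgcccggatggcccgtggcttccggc
Ccng1, chr11:40755287-40755536, minus strand: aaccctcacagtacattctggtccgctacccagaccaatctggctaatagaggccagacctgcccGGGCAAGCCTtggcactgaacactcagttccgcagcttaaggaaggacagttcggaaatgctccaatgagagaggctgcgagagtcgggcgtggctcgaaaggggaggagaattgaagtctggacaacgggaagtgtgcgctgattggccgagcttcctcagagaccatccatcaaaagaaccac
Sfn, chr4:133602169-133602418, minus strand: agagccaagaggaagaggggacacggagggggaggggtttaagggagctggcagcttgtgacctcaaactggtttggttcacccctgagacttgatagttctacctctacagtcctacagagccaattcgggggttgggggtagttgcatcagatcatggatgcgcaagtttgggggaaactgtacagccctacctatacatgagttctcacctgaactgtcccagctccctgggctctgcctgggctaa
The pair of matches in the Cdkn1a window began 73 and 51 bases before the start, the match of Mdm2 186 and that of Ccng1 185 bases before it. The first 3 genes thus share a motif near the start that the Sfn window lacks.

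Several arrays stood apart before any comparison. All 8 cardiomyocyte markers, among them Myh6 and Tnni3, were well above background on every array. The 6 atrial markers were low on 5 arrays, with scores (mean deviation from the median array, log2) of -4.28 to -2.23 against -0.67 or above elsewhere, and the 7 adipocyte markers were low on 5 arrays (-3.58 to -3.23 against -1.99 or above), of which 4 were the same mice. Liver markers were high in control day 3 replicates 4, 5 and 6 (2.51 to 3.83), but also reached 2.51 in controls of day 1 and 2.67 on an exposed array. On carbon black day 1 replicate 6, a few spots had a very high local background, and the first percentile of its background-corrected sample signals was 571 against 53.9 to 161 on the other arrays. Its correlation with its group was 0.768 in the fit used here and 0.900 once such spots were left out. Sfn and Cdkn1a are given in both ways further on, and Zmat3 at day 1 only without that array. For the other members, the day 1 change without that array was 0.09 for Ccng1, -0.16 for Mdm2, -0.18 for Bbc3 and -0.43 for Phlda3. For Sesn1 it was 0.24, for Trp53inp1 0.07 and for Gadd45a -0.17. With the high-background spots left out, the changes in the same order were 0.16, -0.13, -0.14, -0.54, 0.26, -0.04 and -0.08. Of the 16 carbon black arrays, 10 lay at position 4 of their slide, where no control array lay.

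**Figure D1:**
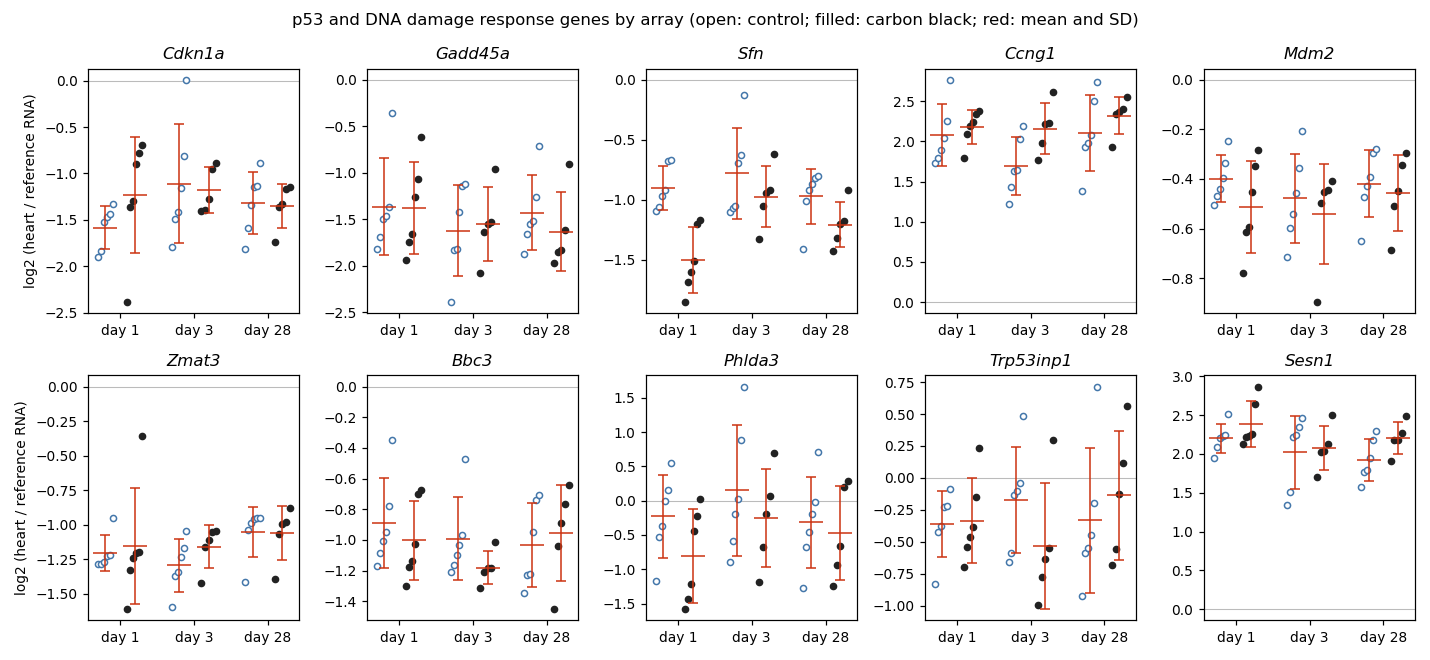
Log2 ratio of heart over reference RNA (vertical axis) of each of the 10 genes on each of the 34 arrays, by day; open circles are control mice, filled circles carbon black mice, and red bars the group mean and SD (n = 6, or 5 for carbon black at days 3 and 28). Control and carbon black points overlap in every panel and day except for Sfn at day 1, where all 6 exposed arrays (-1.85 to -1.17) lie below all 6 controls (-1.10 to -0.67).

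Sfn, Ccng1, Cdkn1a and Gadd45a act on the cell cycle. At day 1 the Sfn controls ran from -1.10 to -0.67 with a median of -0.94, and the exposed arrays from -1.85 to -1.17 with a median of -1.56. At day 3 the controls ran from -1.10 to -0.13 (median -0.87) and the 5 exposed arrays were at -1.33, -1.05, -0.95, -0.92 and -0.62. At day 28 the controls ran from -1.41 to -0.80 (median -0.89) and the 5 exposed arrays were at -1.42, -1.32, -1.20, -1.18 and -0.92. The groups were thus apart at day 1 and overlapped at days 3 and 28, and 14 of the 16 exposed arrays lay below the control mean of their day.

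Over all days, Sfn expression fell by 0.35 ± 0.09 (SE; limma, Benjamini-Hochberg adjusted p = 0.0451). Its change was -0.60 ± 0.15 at day 1 (limma adjusted p = 0.397, unadjusted 0.000335), -0.20 ± 0.16 at day 3 (adjusted p = 0.656) and -0.24 ± 0.16 at day 28 (adjusted p = 1). None of the single-day values was a call, no gene of the 19795 was called at day 1, day 3 or day 28 by limma (1426, 2194 and 591 had an unadjusted p under 0.05), and the effects did not differ between days by the test of that difference (unadjusted p = 0.13, adjusted p = 1). The call over all days held in 10 of the 34 fits that left out 1 array, with adjusted p from 0.0245 to 0.0769 and changes from -0.38 to -0.30. It was kept with slide as a random block (-0.34, adjusted p = 0.045) and lost with slide as a fixed block (-0.30, adjusted p = 0.283), with position as a block (-0.31, adjusted p = 0.612) and without the 3 control day 3 arrays with high liver markers (-0.30, adjusted p = 0.131). Without carbon black day 1 replicate 6 the change was -0.60 at day 1 (adjusted p = 0.40) and -0.35 over all days (adjusted p = 0.0362), and with high-background spots left out -0.63 (adjusted p = 0.28) and -0.35 (adjusted p = 0.0254). Centred on the array median in place of loess, the change of Sfn was 0.0098, beside an all-gene median of 0.19 under that scaling. On the 10 slides that held a control and an exposed mouse of the same day, the exposed mouse was lower on 7. On each of these slides that control lay at position 1 and the exposed mouse at position 4. Arm and position thus cannot be told apart within slides.

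The Sfn value came from the brightest of 3 probes. That probe, A_52_P334188, was well above background on all 34 arrays with a mean sample signal of 1288. The probes A_51_P213940 and A_52_P334191 were well above background on 11 and 12 arrays, with mean signals of 89.0 and 92.4. Their changes over all days were -0.02 ± 0.06 (limma adjusted p over 25246 probes = 0.915) and -0.14 ± 0.07 (adjusted p = 0.257), against -0.35 ± 0.09 (adjusted p = 0.0452) for the bright probe, in a fit of single probes that called 1.87% of them. The bright probe correlated with the others at 0.29 and 0.30 over the 34 arrays, and the dim pair with each other at 0.50. The dim probes were thus near background on most arrays and did not show the change of the bright one. Sfn is known mainly from stratified epithelia, and of the 10 epithelial markers listed, Krt5, Trp63 and Cldn4 did not pass the filter while Krt14, Krt8, Krt18, Krt19, Krt7, Epcam and Cdh1 did. None of the 7 was called over all days. The summed score of these markers ran from -0.63 to 0.66 in controls and from -0.62 to 0.24 in exposed hearts. From mouse to mouse, with group means removed, it correlated with Sfn (r = 0.63, rho = 0.62, permutation adjusted p 0.00074 and 0.0015; r = 0.54 without the farthest 2 arrays). At day 1, fibroblast, macrophage and liver markers were also lower in value: 6 of 8, 4 of 8 and 3 of 5 had an unadjusted p under 0.05 downward, and none was called. Their median changes were -0.94, -0.56 and -1.76. Of all 19795 genes, 769 were lower that day with an unadjusted p under 0.05 (limma). Smooth muscle and endothelial markers had median changes of -0.65 and -0.41, with 0 of 6 and 1 of 8 under 0.05 downward. At day 1 the endothelial score ran from -2.38 to 0.16 (median -0.04) in exposed hearts and from -0.39 to 0.28 (median 0.10) in controls. The smooth muscle score ran from -2.46 to 0.15 (median -0.28) and from -1.63 to 0.44 (median 0.22). For macrophage markers the ranges were -1.60 to 0.22 (median -0.54) and -0.41 to 0.30 (median -0.0094). Values of these markers without carbon black day 1 replicate 6 are not given here. The liver score ran from -0.04 to 2.51 in controls of that day and from -1.03 to 1.37 in exposed hearts, and the fibroblast score ran from -0.87 to 0.51 in controls and from -2.09 to -0.06 in exposed hearts. The part of these markers in the day 1 value of Sfn was not tested.

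**Figure D2:**
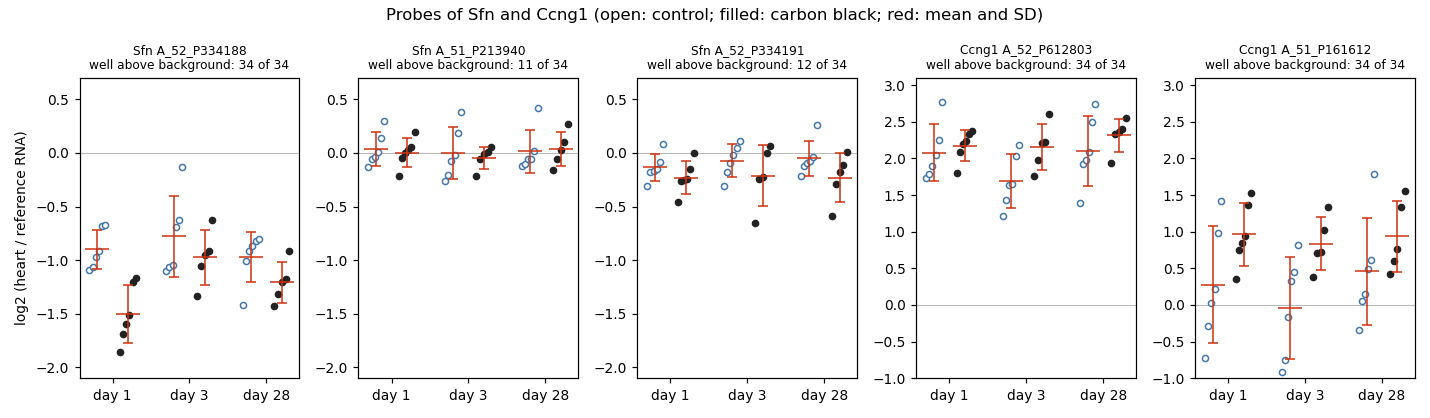
Log2 ratio of heart over reference RNA (vertical axis) for the 3 probes of Sfn and the 2 probes of Ccng1 on the 34 arrays, by day; open circles are controls, filled circles carbon black, red bars mean and SD. The bright Sfn probe (well above background on 34 of 34 arrays) shows lower exposed points at day 1, while the dim probes (11 and 12 of 34) stay near 0 in both arms; the exposed points of both Ccng1 probes overlap the control points on every day.

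Ccng1 encodes cyclin G1, which brings a phosphatase to Mdm2. In controls it was above the reference, with log2 ratios from 1.73 to 2.77 (median 1.97) at day 1, 1.22 to 2.19 (median 1.64) at day 3 and 1.39 to 2.74 (median 2.03) at day 28. The exposed arrays ran from 1.80 to 2.38 (median 2.22) at day 1. They were at 1.76, 1.98, 2.21, 2.22 and 2.61 at day 3 and at 1.93, 2.34, 2.36, 2.40 and 2.55 at day 28. The groups overlapped on every day, and 14 of 16 exposed arrays lay above the control mean of their day. The change over all days was 0.26 ± 0.12 (limma adjusted p = 0.227, unadjusted 0.0341), with 0.09 ± 0.20 at day 1, 0.47 ± 0.20 at day 3 (adjusted p = 0.397) and 0.21 ± 0.20 at day 28, and was not a call. Without the 3 control day 3 arrays with high liver markers it was 0.17, and with median centring 0.62 (adjusted p = 0.046), beside an all-gene median of 0.19.

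The second Ccng1 probe, A_51_P161612, was dimmer (mean sample signal 890 against 4357) and moved more. Controls averaged 0.27 ± 0.80, -0.04 ± 0.69 and 0.46 ± 0.73 (SD, n = 6 each) at days 1, 3 and 28. Exposed mice averaged 0.96 ± 0.43 (n = 6), 0.84 ± 0.36 (n = 5) and 0.94 ± 0.49 (n = 5). Its change over all days was 0.68 ± 0.20 (limma adjusted p = 0.0649), short of the threshold. The 2 probes correlated at 0.80 over the 34 arrays.

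Cdkn1a encodes the inhibitor of cyclin-dependent kinases that is the classical p53 target, and it was read by 1 probe with 10 spots per array, whose SD within an array was 0.12 in the median. Controls ran from -1.90 to -1.33 (median -1.49) at day 1, from -1.79 to 0.01 (median -1.29) at day 3 and from -1.81 to -0.89 (median -1.24) at day 28. The exposed arrays ran from -2.39 to -0.70 (median -1.10) at day 1, and were at -1.41, -1.40, -1.28, -0.95 and -0.89 at day 3 and at -1.74, -1.36, -1.33, -1.17 and -1.14 at day 28. The exposed mice of day 1 thus held both the lowest and some of the highest values of that day, and 9 of the 16 exposed arrays lay above the control mean of their day. The change was 0.35 ± 0.24 at day 1 (limma adjusted p = 0.814), -0.07 ± 0.25 at day 3, -0.03 ± 0.25 at day 28 and 0.08 ± 0.14 over all days (adjusted p = 0.826). The day 1 value was 0.24 without carbon black day 1 replicate 6 and 0.17 with the high-background spots left out.

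Gadd45a, whose protein binds the replication clamp and stress kinases, was below the reference on every array, from -2.39 to -0.36 in controls (median -1.51) and from -2.08 to -0.62 after exposure (median -1.63). Its change was -0.01 ± 0.26 at day 1, 0.07 ± 0.27 at day 3, -0.20 ± 0.27 at day 28 and -0.05 ± 0.15 over all days (limma adjusted p = 0.911). The spread between mice of a group, an SD of 0.46, was larger than that of 85.1% of all genes.

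Mdm2 and Zmat3 modulate p53 itself or its messages. Mdm2, the ubiquitin ligase of p53, was among the steadiest members, with a spread between mice of a group (SD 0.16) above that of only 11.4% of all genes. Its controls ran from -0.71 to -0.21 and its exposed arrays from -0.90 to -0.28. The change was -0.11 ± 0.10 at day 1, -0.06 ± 0.10 at day 3, -0.04 ± 0.10 at day 28 and -0.07 ± 0.06 over all days (limma adjusted p = 0.569). The value moved with the setting: it was -0.22 with slide as a fixed block (limma unadjusted p = 0.00111, adjusted p = 0.127), -0.08 with slide as a random block and 0.11 with position as a fixed block. Within slides, the exposed mouse was lower on 8 of the 10 slides with both arms. Each of these pairs set an exposed mouse at position 4 against a control at position 1, so arm and position cannot be told apart there. The second Mdm2 probe, with 10 spots per array, gave 0.05 ± 0.07 (adjusted p over probes = 0.777) and correlated with the first at 0.20. The probes of Mdm2 thus had opposite signs, neither past the threshold.

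Zmat3, a zinc finger protein that binds RNA, had control means of -1.20 ± 0.13, -1.29 ± 0.19 and -1.05 ± 0.18 (SD, n = 6 each) at days 1, 3 and 28. The exposed means were -1.15 ± 0.42 (n = 6), -1.16 ± 0.15 (n = 5) and -1.06 ± 0.20 (n = 5). The change over all days was 0.06 ± 0.08 (limma adjusted p = 0.776). At day 1 it was 0.05, and -0.11 without carbon black day 1 replicate 6, the array at -0.36 that lay above the 5 others (-1.61 to -1.19). In the authors' deposited ratios the change over all days was -0.07.

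Bbc3, Phlda3 and Trp53inp1 promote cell death. Bbc3 encodes Puma, a BH3-only protein that neutralises the survival factors of the Bcl2 family. Controls ran from -1.17 to -0.35 at day 1, -1.21 to -0.47 at day 3 and -1.34 to -0.71 at day 28, with medians of -0.97, -1.07 and -1.09. Exposed arrays ran from -1.30 to -0.67 (median -1.08) at day 1, and were at -1.32, -1.21, -1.18, -1.18 and -1.01 at day 3 and at -1.45, -1.04, -0.89, -0.77 and -0.64 at day 28. The groups overlapped on every day. The change was -0.11 ± 0.15, -0.19 ± 0.16 and 0.07 ± 0.16 at days 1, 3 and 28 and -0.08 ± 0.09 over all days (limma adjusted p = 0.725).

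Phlda3 encodes a small protein that competes with Akt for membrane lipids. It was the most variable member, with a spread between mice of a group (SD 0.73) above that of 96.1% of all genes. Controls ran from -1.17 to 0.55 (median -0.19) at day 1, -0.90 to 1.66 (median -0.09) at day 3 and -1.27 to 0.71 (median -0.32) at day 28. Exposed arrays ran from -1.58 to 0.03 (median -0.83) at day 1 and were at -1.18, -0.68, -0.19, 0.06 and 0.70 at day 3 and at -1.25, -0.94, -0.66, 0.20 and 0.29 at day 28. The mice of a single group thus differed by more than the groups did. The change was -0.58 ± 0.40, -0.41 ± 0.42 and -0.16 ± 0.42 at days 1, 3 and 28 and -0.38 ± 0.24 over all days (limma adjusted p = 0.418), a value near that of Sfn with a wider SE. With the adipocyte score of each array as a covariate, an alternative chosen after seeing the data, it was -0.53 ± 0.13 (adjusted p = 0.0189). With the cardiomyocyte score as a covariate, also chosen after seeing the data, it was -0.13 ± 0.25 (limma adjusted p = 0.87). Slide as a fixed block gave -0.06 ± 0.32 (limma adjusted p = 0.962), and median centring 0.02, beside the same all-gene median of 0.19.

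Trp53inp1, a stress-induced partner of p53 and of autophagy proteins, changed little over all days (-0.05 ± 0.14, limma adjusted p = 0.912), with 0.03 ± 0.24, -0.36 ± 0.26 and 0.20 ± 0.26 at days 1, 3 and 28. Its second probe gave -0.06 ± 0.14 and correlated with the first at 0.55. Sesn1, a sestrin that restrains growth signalling and is induced by oxidative stress, was above the reference on every array, from 1.34 to 2.51 in controls and from 1.71 to 2.87 after carbon black. Of the 16 exposed arrays, 13 lay above the control mean of their day. Its change was 0.19 ± 0.17, 0.06 ± 0.18 and 0.28 ± 0.18 at days 1, 3 and 28 and 0.18 ± 0.10 over all days (limma adjusted p = 0.374). The other 2 Sesn1 probes gave 0.14 ± 0.17 and 0.01 ± 0.16.

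**Figure D3:**
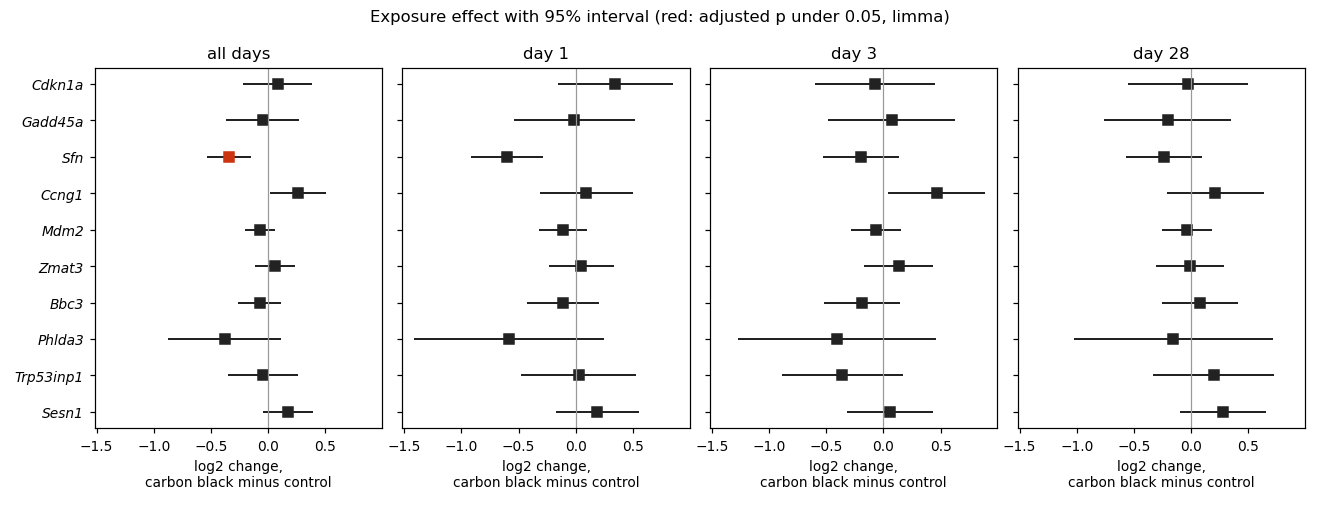
Change of each gene, carbon black minus control, on the log2 scale (horizontal axis) with its 95% interval from limma, over all days and at each day; red marks an adjusted p under 0.05. Sfn over all days (-0.35) is the single red point, and the intervals of 8 of the 10 genes over all days cross 0, those of Sfn and Ccng1 being the exceptions.

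Read as a set, the members did not move one way under the loess scaling. Over all days, 4 of 10 were above 0 with a median change of -0.05, where 50.4% of all genes were above 0 with a median of 0.00. Under median centring the members ran from 0.0098 (Sfn) to 0.62 (Ccng1), all above 0. Their median was then 0.285, beside 0.19 for all genes. At days 1, 3 and 28 the medians of the members were 0.0058, -0.07 and -0.02, beside -0.0042, 0.02 and 0.01 for all genes. An unadjusted p under 0.05 over all days was reached by 2 of 10 members, Sfn and Ccng1, and by 18.3% of all genes. Between days, no member was called by limma in controls or in exposed mice (0% of all genes in each of these comparisons). The members with an unadjusted p under 0.05 were Sfn in exposed mice, higher at day 3 than at day 1 by 0.53 ± 0.16 (adjusted p = 0.506), and Ccng1 in controls, higher at day 28 than at day 3 by 0.41 ± 0.19 (adjusted p = 0.999).

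The wider pathway was read through 6 lists, which share a few genes (Mdm4, Pmaip1, Sesn2). Of 34 measured p53 targets outside the 10, such as Bax, Fas, Btg2 and Gdf15, none was called over all days, with a median change of 0.02; 18 were above 0, and 4 higher and 2 lower had an unadjusted p under 0.05. The smallest p belonged to Ak1, adenylate kinase (0.66 ± 0.20, limma adjusted p = 0.0752), Ddb2, which recognises ultraviolet lesions (0.22 ± 0.08, adjusted p = 0.104), and Ei24 (0.30 ± 0.10, adjusted p = 0.11). Of 20 regulators and partners of p53, none was called (median -0.04). Ppp1r13l, which encodes the inhibitor iASPP, came nearest (0.35 ± 0.10, adjusted p = 0.0536), followed by the bromodomain gene Brd7 (0.36 ± 0.16, adjusted p = 0.202) and by Trp53bp1 (-0.11 ± 0.06, adjusted p = 0.337). Trp53 itself, named outside the rule for its role, changed by 0.02 ± 0.12 (adjusted p = 0.967).

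Both calls in these lists were repair or checkpoint genes that were higher after carbon black, where 1.33% of all genes were called higher. Taken over the 34, 20, 17, 21, 28 and 24 genes tested in the 6 lists, these calls lay near that share. Aptx, which removes failed ligation products from DNA ends, rose by 0.49 ± 0.12 (limma adjusted p = 0.0378) from a mean log2 ratio of -0.38 in controls to 0.11, and was the 1 call among 21 base excision repair genes. Atrip, the partner of the kinase Atr, rose by 0.29 ± 0.08 (adjusted p = 0.0459), from -0.46 to -0.18, and was the 1 call among 17 genes of damage signalling. Like Sfn, both lay close to the threshold: when 1 array was left out, Aptx was called in 18 and Atrip in 12 of 34 fits. With slide as a fixed block their adjusted p was 0.127 and 0.161, with slide as a random block 0.0351 and 0.045, and without the control day 3 arrays with high liver markers 0.13 and 0.153. Xrcc1, Parp1, Ogg1 and the 17 others of base excision repair were not called. Among 28 other repair genes none was called, and Msh6 (0.31 ± 0.10, limma adjusted p = 0.0829) and Xpa (0.16 ± 0.05, adjusted p = 0.0873) had the smallest p. Of 24 relatives of the members, such as Cdkn1b, Gadd45b and the other 14-3-3 genes, none was called, and Bik (0.34 ± 0.14, adjusted p = 0.192), Ywhaz (0.27 ± 0.13, adjusted p = 0.24) and Cdkn1c (0.37 ± 0.18, adjusted p = 0.265) had the smallest p. At single days, no gene of the 6 lists was called.

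**Figure D4:**
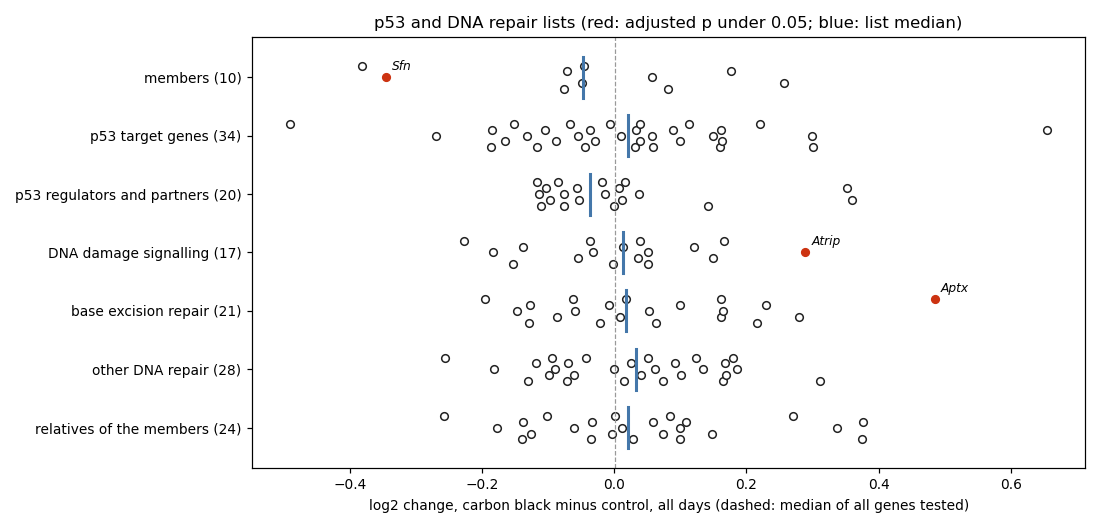
Change over all days, carbon black minus control, on the log2 scale (horizontal axis) for the 10 members and the tested genes of each list, whose number stands in parentheses; each circle is a gene, red circles have an adjusted p under 0.05 (limma), blue bars are list medians and the dashed line the median of all genes tested. The list medians lie between -0.05 and 0.03, and the red circles are Sfn, Atrip and Aptx.

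The members varied together between mice of the same group. After group means were subtracted, 26 of the 45 pairs of members correlated over the 34 arrays with a Benjamini-Hochberg adjusted p under 0.05 (permutation test, 100000 resamples, two-sided), 11 positively and 15 negatively. The share among pairs of all genes was not computed, so this count cannot be read as particular to the members. Phlda3, Sfn and Trp53inp1 varied in the same sense, with Pearson's r from 0.67 to 0.82 among their 3 pairs. Ccng1, Sesn1 and Gadd45a did so as well (0.68 to 0.73), and the 9 pairs between these trios were negative (-0.83 to -0.65). For Phlda3 and Sfn r was 0.82 (Spearman's rho 0.79, permutation adjusted p 4.5e-05 and 5.6e-05, both from the smallest p the resamples can give), and 0.78 without the 2 arrays farthest from the median. For Sesn1 and Sfn r was -0.83 (rho -0.82, permutation adjusted p 4.5e-05 and 5.6e-05), and -0.82 without the farthest 2. Bbc3 correlated with none of the other members (r from -0.22 to 0.20). All 26 pairs kept their sign when slide effects were also subtracted, when the farthest 2 arrays were left out, and without the 5 arrays with low adipocyte markers.

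The sign between the trios depended on the scaling. Under median centring the 9 pairs between them ran from -0.15 to 0.44 and 42 of the 45 pairs were positive, while the pairs within the trios stayed at 0.78 to 0.85 and 0.87 to 0.90. The trios themselves were noted after the values were seen. Cdkn1a correlated with Sfn (r = 0.62, rho = 0.51, permutation adjusted p 0.00034 and 0.007), and r was 0.44 without the farthest 2 arrays; with Mdm2 it was -0.05 (rho 0.14, permutation adjusted p 0.84 and 0.49), so no relation between the classical target and the feedback gene was detected over these arrays.

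**Figure D5:**
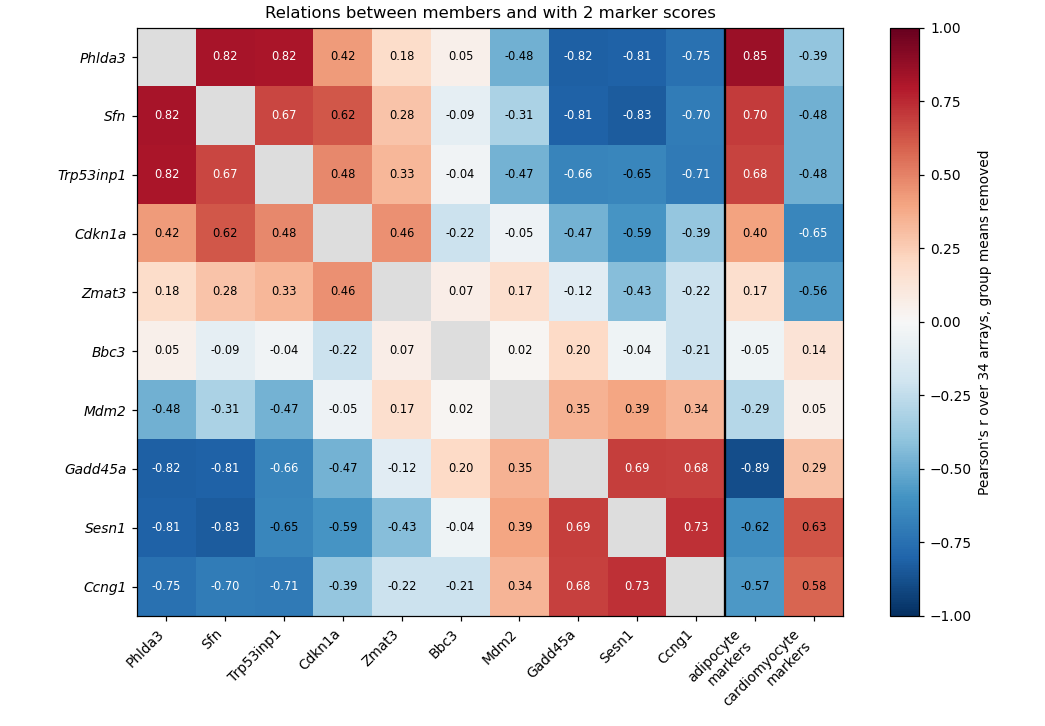
Pearson's r over the 34 arrays, with group means removed, for each pair of members and for each member with the mean score of adipocyte and of cardiomyocyte markers; red is positive, blue negative, and grey cells are a gene with itself. Phlda3, Sfn and Trp53inp1 form a positive block at the upper left (0.67 to 0.82), and Gadd45a, Sesn1 and Ccng1 one at the lower right (0.68 to 0.73).

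Markers of other cells moved with these genes from mouse to mouse. Of 130 relations between the 10 members and 13 marker lists, 42 had an adjusted p under 0.05 (permutation test over the 34 arrays). They were most frequent for the epithelial markers (8 of 10 members, all but Mdm2 and Bbc3), followed by the adipocyte, cardiomyocyte and T and B cell markers (6 of 10 each). The share of such relations among all genes was not computed. With the epithelial score r was -0.67 for Ccng1, 0.65 for Phlda3, -0.62 for Gadd45a and -0.60 for Sesn1 (permutation adjusted p 0.00072, 0.00074, 0.0011 and 0.0012), and with the T and B cell score 0.69 for Trp53inp1 and 0.63 for Phlda3 (0.00065 each). With the adipocyte score, r was 0.85 for Phlda3 (rho 0.89), 0.70 for Sfn (rho 0.75) and -0.89 for Gadd45a (rho -0.79), each with a permutation adjusted p of 0.00043. The adipocyte score fell into a low group of 5 arrays and the 29 others, and over those 29 r was 0.83 for Phlda3, 0.73 for Sfn and -0.76 for Gadd45a (permutation adjusted p 5e-05 each). With the cardiomyocyte score r was -0.65 for Cdkn1a, 0.63 for Sesn1 and 0.58 for Ccng1 (permutation adjusted p 0.00065, 0.00074 and 0.0022), and -0.63, 0.63 and 0.68 over the 29 arrays. The adipocyte score ran from -3.39 to 1.39 without exposure and from -3.58 to 1.25 with it (means -0.63 and -0.28); 2 to 7 of its 7 markers were well above background on an array, and no marker was called over all days. The cardiomyocyte score reached at most 0.35 without exposure and 0.91 with it (means -0.29 and 0.07). All 8 of its markers had a value above 0 over all days, and Tnni3 was called (0.82 ± 0.22, limma adjusted p = 0.0472). With the cardiomyocyte score as a covariate, Sfn changed by -0.24 (adjusted p = 0.301), Ccng1 by 0.08 and Sesn1 by 0.0096, while Cdkn1a changed by 0.33 (unadjusted p = 0.0129, limma adjusted p = 0.301), Zmat3 by 0.17 (adjusted p = 0.375) and Trp53inp1 by 0.14 (adjusted p = 0.752). Phlda3 changed by -0.13 in that fit (limma adjusted p = 0.87). With the adipocyte score as a covariate, Sfn changed by -0.39 (adjusted p = 0.00487). Whether the make-up of the section takes part in the Sfn result beyond these fits was not tested.

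The genes whose log2 ratios followed each member most closely over the 34 arrays are given as a description, since arrays share tissue make-up and processing. Phlda3 lay closest to Nadk, Cd1d1 and Tspo (r = 0.96, 0.95 and 0.95). Sfn lay closest to the annexins Anxa2 and Anxa5 and to its relative Ywhaq (0.91, 0.88 and 0.87). Ccng1 was followed by Faf1, Asb8 and Wfs1 (0.86, 0.86 and 0.85), Sesn1 by Adamts7, Ndufv3 and Ptp4a3 (0.86, 0.86 and 0.85), and Trp53inp1 by Sfxn1, Serp1 and Crtc2 (0.85, 0.85 and 0.83). Gadd45a was followed by Adssl1, Zfp975 and Twf2 (0.80, 0.78 and 0.78), Zmat3 by Cenpt, Aplf and Cpne2 (0.80, 0.76 and 0.75) and Mdm2 by Hikeshi, Gng11 and Dimt1 (0.76, 0.76 and 0.75). The nearest genes of Cdkn1a (Sphk1, Gtf2ird1 and Ccnl1, 0.68, 0.67 and 0.63) and Bbc3 (Mtmr4, Top3b and Fip1l1, 0.65, 0.65 and 0.61) were less alike. No member was among the 3 nearest genes of another.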

How the data were processed

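Per the labels' protocols, 200 ng of heart RNA of each mouse was amplified and labelled with Cy5 and hybridised with Cy3-labelled reference RNA to Agilent mouse arrays, with no dye swap. Per the file headers, the deposited scanner files come from Agilent Feature Extraction 10.1.1.1 and give linear signal intensity per spot. From the median signals, log2 ratios were made in limma 3.58.1 (R 4.3.3) by normexp correction, offset 50, then loess within each array. Spots of a probe were averaged. A probe was kept if well above background in the heart channel on at least 0.5 of the arrays of 1 group, with at most 3 missing values, and a gene was read by its brightest probe. The share of spots well above background ran from 42.8% to 66.6%, and no member spot was saturated. lmFit and eBayes fitted 6 group means (28 residual degrees of freedom). The p-values set each difference against the spread between arrays of a group, 1 mouse per array. That spread can also hold differences of section, slide and position, and the number of arrays limits the precision. The fit was tested on simulated data.

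The value table of log2 ratios deposited by the authors has its direction (heart over reference) set by its correlation of 0.995 to 0.998 with loess ratios. Its scale is set by a slope of 0.988 to 0.996 between the same values, and its column medians are -0.055 to -0.034. It served as an alternative. Names came from RefSeq accessions (23374 probes matched; table built on GRCm38.p6, array header build mm8), and promoter sequences from RefSeq (250 bases before each start; Python 3.11.15). Alternatives covered background correction, normalisation, filter, slide, scan day, position, arrays left out and marker scores. The members and lists were chosen with earlier results of these data known. Of each list, genes past the threshold are named, otherwise the 3 of smallest p. One gene that the rule names is not reported here.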

Additional observations from a re-analysis of the deposited data

Results flagged for a closer look

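In 7 of the 60 combinations of a gene and a group, 1 mouse lay far from the others of its group by Dixon's test at the 95% level, which chance gives in about 1 in 20 groups. Zmat3 did so in 3 groups: carbon black day 1 replicate 6 was at -0.36 (log2 ratio; the others -1.61 to -1.19), control day 1 replicate 5 at -0.95 (-1.28 to -1.22) and control day 28 replicate 2 at -1.41 (-1.04 to -0.95). Sfn was lowest in control day 28 replicate 2 at -1.41, with the 5 others between -1.01 and -0.80. Gadd45a was highest in control day 1 replicate 2 at -0.36 (-1.82 to -1.37). Bbc3 was highest in control day 3 replicate 3 at -0.47 (-1.21 to -0.97), and Mdm2 was lowest in carbon black day 3 replicate 4 at -0.90 (-0.50 to -0.41). Carbon black day 1 replicate 6, control day 1 replicate 2 and control day 28 replicate 2 had both low atrial and low adipocyte markers. Carbon black day 1 replicate 6 was also the array with spots of very high local background. The first percentile of its background-corrected sample signals was 571. With high-background spots left out, the change of Zmat3 over all days was -0.0054 in place of 0.06. The parts of tissue make-up and background in the single values above were not tested.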

How the results depend on the processing

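Over all days, 386 genes were called (263 higher, 123 lower). The count was 1485 without background correction, 1375 with median centring (1374 higher, 1 lower), 1497 in the authors' deposited ratios (821 higher, 676 lower), 148 without the filter, 1017 without the 5 arrays with low atrial markers and 1 without the 3 control day 3 arrays with high liver markers. It was 0 with Agilent processed signals and with slide, scan day or position as a fixed block. Of alternatives chosen after seeing the data, leaving out high-background spots gave 1047, the adipocyte score as a covariate 1142 and the cardiomyocyte score 0. Members called were 0 in place of 1 with processed signals, without the filter, with each fixed block, without the liver-marker arrays and with the cardiomyocyte score, and 2 (Sfn, Phlda3) with the adipocyte score. With median centring the member called was Ccng1 (limma adjusted p = 0.046) and not Sfn (adjusted p = 0.97). Scan day as a block gave 1 gene at day 1. For carbon black at day 3 against day 1, processed signals gave 19 genes, and 1 was called without the liver-marker arrays or with the arrays of those groups alone, as for controls at day 28 against day 1. Leaving out 1 array gave 0 to 939 genes and 0 to 1 members over all days, 0 to 3 genes at day 1, 0 to 1 at day 3 and 0 to 10 between exposed days. Sfn was called in 19 of 51 alternatives, of which 34 left out 1 array, and its sign turned in 1, median centring (0.0098). Among the 19 is a scaling of intensities between arrays that leaves the log2 ratios unchanged, so its call was fixed in advance. The causes of the differences between settings were not tested. The pairs of members past the threshold numbered 26, and 23 to 37 under the alternatives. These counts do not show the signs: under median centring all 35 pairs past the threshold were positive. Of the 26, 14 kept their sign under that scaling and 11 of those stayed past the threshold, while 5 were past it with the opposite sign. No paired analysis was possible because no replicate number of the labels is shared between groups. Slide served as a block instead. Of the 14 slides, 10 held mice of both arms, and the others held a single arm. On those 10, the pairs of the same day set position 4 (exposed) against position 1 (control). Dim probes, such as 2 of Sfn, limit what can be read.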
